A study of Mus musculus with 2 samples.

Results

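The genes that carry the Wnt signal outside the cell and at its surface were examined in iBAT, the interscapular brown fat in which mice make heat. They were chosen by symbol: every Wnt, Frizzled (Fzd), secreted Frizzled-related (Sfrp) and Dickkopf (Dkk) gene with a number after the family name, together with Frzb, Wif1, Lrp5, Lrp6, Ror1, Ror2, Axin2, Lgr4 and Rspo1 to Rspo4. Of 27179 genes in the tables, 50 met this rule, and 1 of them, Fzd10os, is an antisense RNA that the pattern for Frizzled genes also takes in. RNA came from untreated 20-day-old C57BL/6N mice, either wild-type or with both copies of Ucp1 knocked out (Ucp1-KO). The loss was in the whole animal and not in adipocytes alone. Each genotype was 1 library from the iBAT of 3 pooled animals. Without replicate libraries no p-value or standard deviation can be given, and what is compared is 1 pooled sample with another. In whole tissue, fewer cells of a type and less RNA per cell cannot be told apart.

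Wnt proteins are lipid-modified signals that act over short distances. They bind a Frizzled receptor together with a co-receptor, LRP5 or LRP6 for the route that stabilises beta-catenin and ROR1 or ROR2 for routes that do not use it. Secreted antagonists either bind the Wnt itself (SFRP proteins, FRZB, WIF1) or block LRP5 and LRP6 (DKK1, DKK2), while R-spondins act through LGR receptors to keep Frizzled proteins on the surface. In adipose tissue, beta-catenin signalling is known for holding preadipocytes back from differentiation.

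In total, the wild-type library held 52950913 counts and the Ucp1-KO library 53216727. The knocked-out gene itself was at 12.7% of the wild-type level. Brown adipocyte markers were present in both libraries, all 10 of 10 with counts. The libraries also differed in ways not set by the genotype label. All 23 skeletal muscle markers were lower in Ucp1-KO, holding 0.714% and 0.0872% of the wild-type and Ucp1-KO totals, and none was at 0. The animals are described as male, but 4 genes of the Y chromosome (Uty, Ddx3y, Eif2s3y and Kdm5d) summed to 0 counts for wild-type and to 5305 for Ucp1-KO. Xist, the RNA of the inactive X chromosome of females, had 32380 and 16478 counts, so it was also read from the Ucp1-KO pool, at 62.6% of the wild-type level. The 2 mitochondrial ribosomal RNAs held 1.01% and 6.01% of counts. Genotype and these differences cannot be told apart.

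The Wnt module was read at a low level, with 27022 wild-type and 21377 Ucp1-KO counts, or 0.0510% and 0.0402% of all counts. These shares are relative to library totals. After normalisation the summed counts were closer, at 24356 for wild-type and 23716 for Ucp1-KO. The receptor and co-receptor genes held most of these counts, and 15 of the 19 ligands had fewer than 100 counts in each library. Of the 50 genes, 9 had 0 counts in both libraries, and 36 reached a normalised count of 10 on average, the minimum for a ratio to be counted here. A level of 0 allows up to 6 counts, or 3 read pairs, which is 0.113 CPM (the count relative to the library total). Between genes, levels were compared as CPM per kilobase of merged exon. On that scale Fzd4 was the highest gene of the module in either library, at 20.7 and 15.5, and Wnt5a was the highest ligand, at 1.83 and 2.02.

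**Figure D1:**
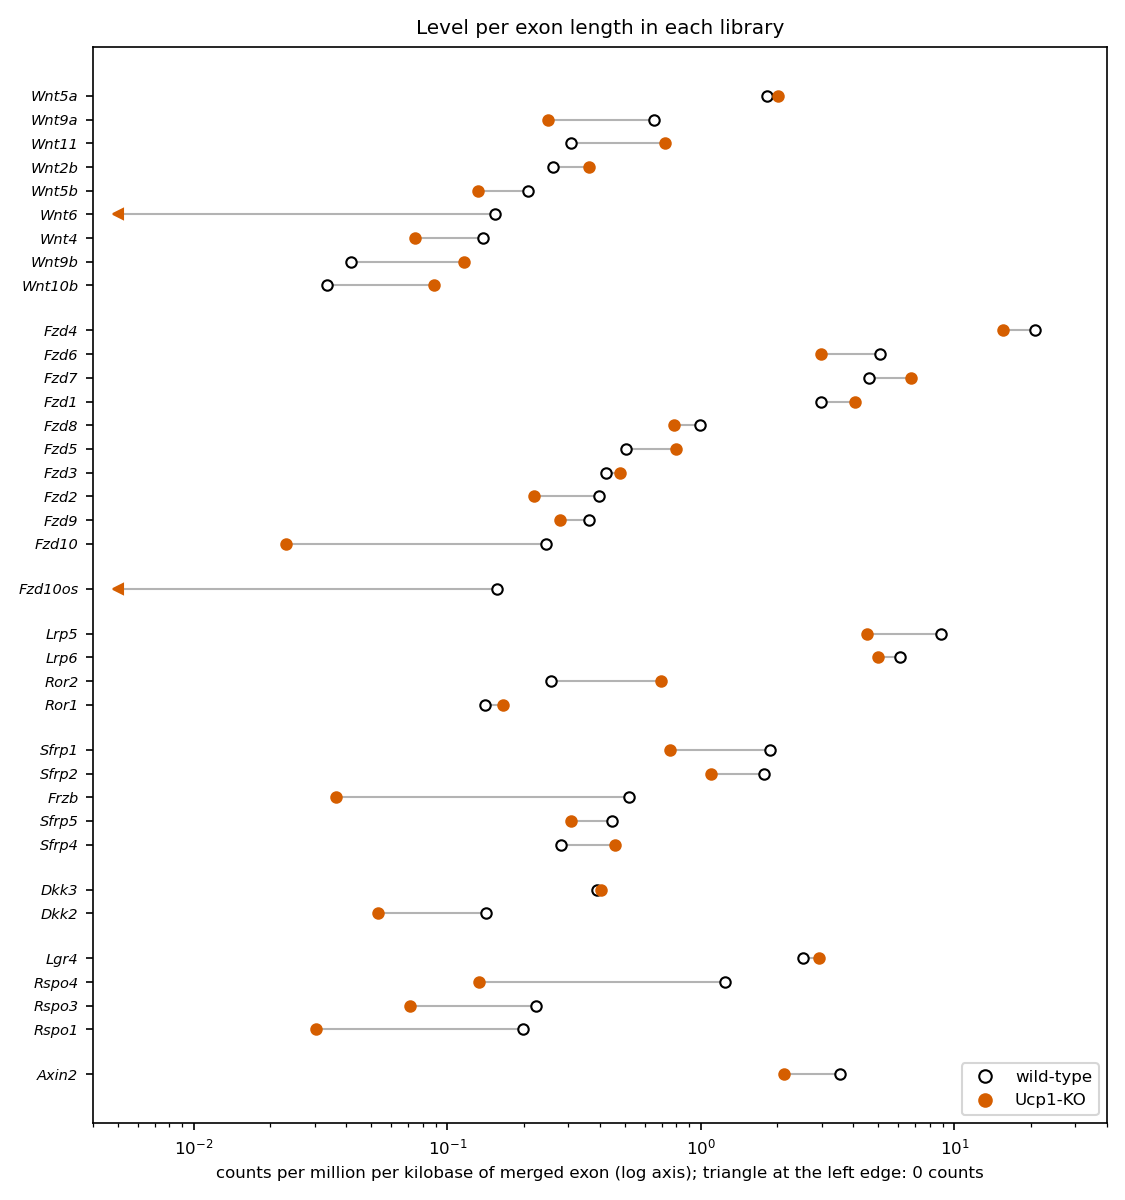
Level of the 36 module genes that passed the minimum, as CPM per kilobase of merged exon on a log axis, in wild-type (open circles) and Ucp1-KO (filled circles). Genes are grouped by role and ordered by their wild-type level. Fzd4 lies furthest right in both libraries, and Wnt6 and Fzd10os have 0 counts in Ucp1-KO (triangles at the left edge).

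Between the libraries the module differed gene by gene rather than in 1 direction. The log2 ratio of normalised counts, Ucp1-KO against wild-type, was at least 1 (2-fold higher) for 5 of 36 genes, where 7.42% of all 15212 genes so filtered were that much higher. It was -1 or less (2-fold lower) for 10 of 36, against 9.55% of all genes. The higher genes were Wnt9b, Wnt10b, Wnt11, Ror2 and Sfrp4. The lower genes were Wnt6, Wnt9a, Fzd10, Fzd10os, Sfrp1, Frzb, Dkk2, Rspo1, Rspo3 and Rspo4. Of these 15 genes, 7 passed the minimum through 1 library alone and so had to differ (Wnt6, Wnt9b, Wnt10b, Fzd10, Fzd10os, Frzb and Rspo1). The median log2 ratio over the 36 genes was -0.17, also with Wnt6 and Fzd10os placed at their bounds, against -0.0016 over all genes.

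Counting error gives the precision of each ratio. Its 95% interval lay wholly above equal levels for 12 of the 36 genes and wholly below for 13, and it spanned equal levels for 11. With total counts these numbers were 7, 16 and 13, as Wnt2b, Wnt5a, Wnt9b, Wnt10b and Fzd3 were no longer above and Fzd2, Lrp6 and Sfrp2 came to lie below. Over all genes 31.5% lay above and 30.5% below. For the summed counts of all 50 genes the log2 ratio was -0.038 (interval -0.075 to -0.0017). With total counts that sum gave -0.35 (-0.38 to -0.31). These intervals cover counting error only and say nothing of the spread between animals. Among the 15 genes past 2-fold, the interval was wholly beyond 2-fold for 7, with 2 higher (Wnt11 and Ror2) and 5 lower (Wnt6, Fzd10, Fzd10os, Frzb and Rspo4). All of these 5 but Rspo4 passed the minimum through wild-type alone, and Fzd10 and Fzd10os overlap, so the 5 are not set against the share of all genes. The 2 higher calls depended on the scaling. The lower end for Wnt11 was 1.001 here, 0.990 with TMM size factors and 0.694 with total counts. For Ror2 it was 1.14 here, but 0.829 with total counts. With a minimum mean of 50, 3 of 23 genes were higher and 3 lower, each 13.0%, against 4.80% and 6.31% of all genes.

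**Figure D2:**
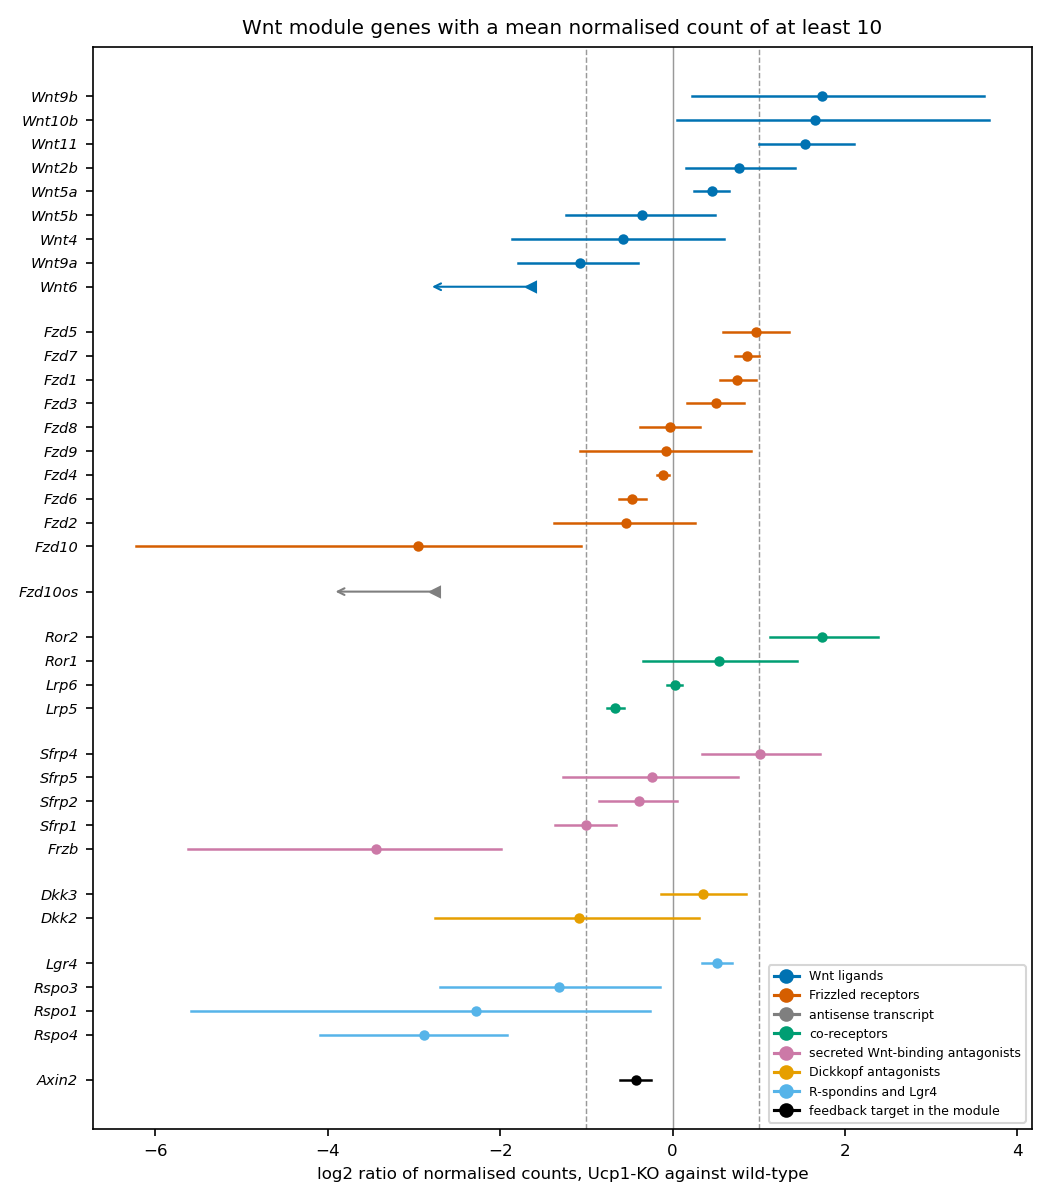
Log2 ratio of normalised counts, Ucp1-KO against wild-type, for the 36 module genes by role. Points are ratios, lines 95% counting intervals on read pairs, arrows bounds for genes with 0 counts in Ucp1-KO, and dashed lines 2-fold. Frzb, Fzd10 and Rspo4 lie furthest to the left of the genes with counts in both libraries, and Ror2, Wnt9b, Wnt10b and Wnt11 furthest to the right.

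Promoter windows are given for 4 genes, chosen after their values were seen. Axin2 is the feedback gene that beta-catenin signalling is known to switch on. Wnt11 was among the higher ligands, below Wnt9b and Wnt10b in ratio. Frzb and Rspo4 were the antagonist and the R-spondin with the lowest ratios. Each window runs from 250 bases before to 50 bases after the start of the gene, 5′ to 3′ on the gene's own strand. The windows are those that RefSeq gives for GRCm38.p6. Capitals mark the letters CTTTGAT or, on the other strand, ATCAAAG, a core that TCF and LEF proteins, the DNA-binding partners of beta-catenin, are known to bind. Axin2 is at chr11:108920099-108920398 on the plus strand, Wnt11 at chr7:98834862-98835161 (plus), Frzb at chr2:80447347-80447646 (minus) and Rspo4 at chr2:151842677-151842976 (plus).
Axin2: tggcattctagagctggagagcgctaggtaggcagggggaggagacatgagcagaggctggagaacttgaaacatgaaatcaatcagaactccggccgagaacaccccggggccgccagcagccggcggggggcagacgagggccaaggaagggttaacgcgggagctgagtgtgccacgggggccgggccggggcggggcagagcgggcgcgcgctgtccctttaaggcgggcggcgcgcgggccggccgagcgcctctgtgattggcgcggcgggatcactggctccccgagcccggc
Wnt11: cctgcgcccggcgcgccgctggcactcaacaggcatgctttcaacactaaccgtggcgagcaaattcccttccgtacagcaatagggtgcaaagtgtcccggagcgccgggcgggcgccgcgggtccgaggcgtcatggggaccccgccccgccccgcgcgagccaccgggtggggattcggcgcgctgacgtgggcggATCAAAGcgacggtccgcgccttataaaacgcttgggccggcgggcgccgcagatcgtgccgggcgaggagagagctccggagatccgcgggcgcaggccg
Frzb: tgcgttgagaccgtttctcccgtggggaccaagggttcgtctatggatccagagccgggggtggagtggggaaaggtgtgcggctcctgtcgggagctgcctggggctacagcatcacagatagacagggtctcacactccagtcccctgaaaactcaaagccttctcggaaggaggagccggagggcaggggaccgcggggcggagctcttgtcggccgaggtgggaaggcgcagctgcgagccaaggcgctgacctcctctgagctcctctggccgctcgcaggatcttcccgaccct
Rspo4: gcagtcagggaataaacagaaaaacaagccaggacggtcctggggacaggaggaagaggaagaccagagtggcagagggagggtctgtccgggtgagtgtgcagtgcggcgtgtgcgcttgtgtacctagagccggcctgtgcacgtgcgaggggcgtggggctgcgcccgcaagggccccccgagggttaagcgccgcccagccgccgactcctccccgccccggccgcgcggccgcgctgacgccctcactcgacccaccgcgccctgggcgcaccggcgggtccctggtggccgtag
Wnt11, second start: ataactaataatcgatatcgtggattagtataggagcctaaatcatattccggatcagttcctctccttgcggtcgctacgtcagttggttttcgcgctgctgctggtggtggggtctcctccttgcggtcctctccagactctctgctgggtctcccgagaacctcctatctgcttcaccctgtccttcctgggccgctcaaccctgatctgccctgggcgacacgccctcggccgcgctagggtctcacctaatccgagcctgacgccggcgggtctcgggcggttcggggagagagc
RefSeq gives Wnt11 another start as well, whose window is the last one printed (chr7:98838595-98838894, plus). The letters were found once in the first Wnt11 window and in none of the other 4. RefSeq windows were found for 33 of the 50 genes, 36 windows in all, and 2 of them (5.56%), 1 of Wnt11 and 1 of Wnt5b, held the letters, against 3.73% of all 32851 promoter windows of that length. A match is a description of the sequence and not a site shown to be bound.

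Among the 19 Wnt ligands, 9 passed the minimum, with 3 at least 2-fold higher in Ucp1-KO, 2 at least 2-fold lower and 4 between. Over all genes 7.42% were that much higher and 9.55% that much lower. Wnt6, Wnt9b and Wnt10b passed the minimum through 1 library alone and so had to differ. The median log2 ratio of the ligands was 0.45, or 0.15 with total-count scaling, which shifted the median of all genes to -0.31. Summed over all 19 genes, there were 1230 and 1338 ligand counts, giving a log2 ratio of 0.42 (95% counting interval 0.26 to 0.58) after normalisation. With total counts that sum gave 0.11, and its interval (-0.046 to 0.27) spanned equal levels. Wnt5a, the ligand best known for routes that bypass beta-catenin, had 777 wild-type counts and 864 Ucp1-KO counts, for a log2 ratio of 0.45 (interval 0.25 to 0.65). With total counts it was 0.15, and the interval (-0.055 to 0.35) spanned equal levels. It made up 49.9% of the summed ligand level per exon length in wild-type and 53.2% in Ucp1-KO.

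The order of the ligands below Wnt5a differed between the libraries. Wnt11, which like Wnt5a is known for signalling without beta-catenin, had 82 wild-type counts (58.8 to 111) and 194 Ucp1-KO counts (157 to 237). The log2 ratio of 1.54 (1.00 to 2.11) was beyond counting error, and the gene, on chromosome 7 from 98484319 to 98504402 of GRCm39, moved from the third to the second highest ligand per exon length. Wnt9a, next to Wnt3a on chromosome 11, went the other way, with 135 counts (105 to 171) and 52 (34.0 to 76.2), for a log2 ratio of -1.07 (interval -1.79 to -0.40). It was second in wild-type, at 0.652 CPM per kilobase against 0.306 for Wnt11. In Ucp1-KO it stood lower, at 0.250 against 0.721 for Wnt11 and 0.362 for Wnt2b. Wnt2b had 76 and 106 counts, for a log2 ratio of 0.78 (interval 0.15 to 1.42).

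The weaker ligands gave wide intervals. Wnt10b, known as a brake on adipocyte differentiation, had 9 wild-type counts (2.70 to 21.9) and 24 Ucp1-KO counts (12.4 to 41.9), a log2 ratio of 1.66 with an interval of 0.054 to 3.68. Wnt9b had 10 and 28 counts, for a log2 ratio of 1.73 (interval 0.23 to 3.61). Wnt6 had 23 wild-type counts (11.7 to 40.6) and 0 Ucp1-KO counts. Set against 6 counts it was 3.11-fold lower, a bound that leaves out the counting error of the wild-type count. The upper end of its interval was a log2 ratio of -1.10. For Wnt4 (37 and 20 counts, -0.58, interval -1.86 to 0.60) and Wnt5b (63 and 40, -0.35, interval -1.24 to 0.50) the interval spanned equal levels, and Wnt5b also shares 2963 bases with Fbxl14 on the opposite strand. Wnt2 had 16 and 2 counts, Wnt7b 0 and 8 and Wnt8b 2 and 0, all under the minimum. Wnt1, Wnt3, Wnt3a, Wnt7a, Wnt8a, Wnt10a and Wnt16 were listed at 0 in both.

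Ligands with counts and ligands at 0 sat side by side in the genome. In GRCm39, 4 pairs of Wnt genes lie close together, namely Wnt6 with Wnt10a on chromosome 1, Wnt9a with Wnt3a and Wnt9b with Wnt3 on chromosome 11, and Wnt10b with Wnt1 on chromosome 15. In each pair the first gene named had counts and its neighbour was listed at 0 in both libraries. The gaps are 5699, 15982 and 24320 bases for the first 3 pairs. Wnt10b and Wnt1 overlap by 2308 bases on opposite strands, and the strand setting of the counting is not given in the sources used here.

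**Figure D3:**
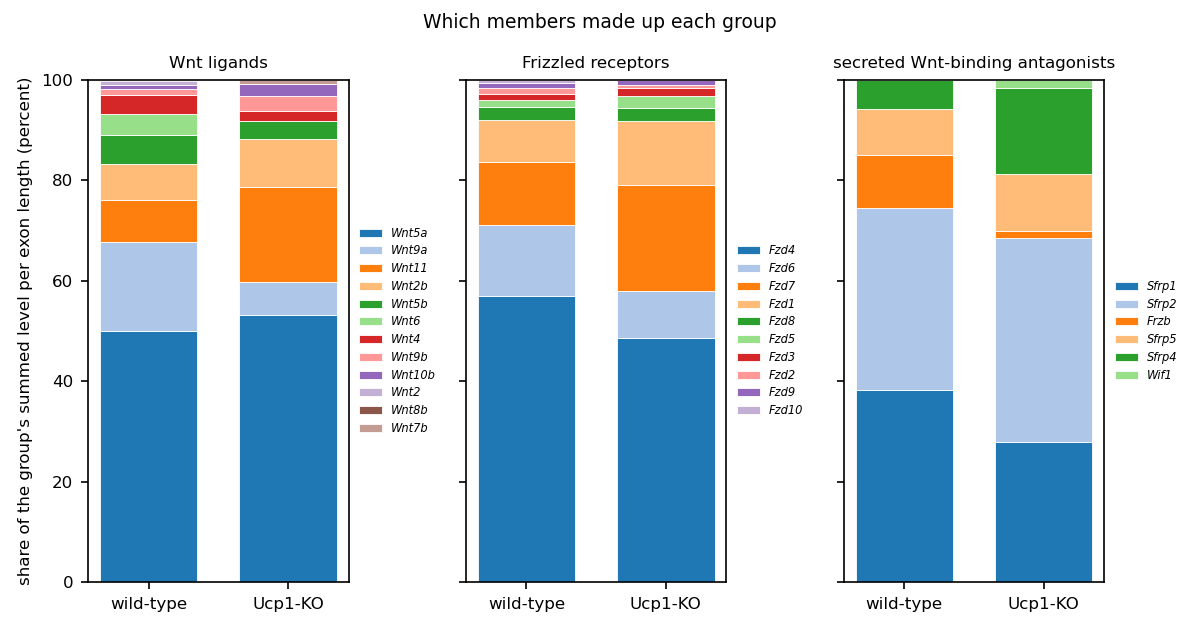
Share of each gene in the summed level per exon length of its group, in percent, for Wnt ligands, Frizzled receptors and secreted Wnt-binding antagonists in wild-type and Ucp1-KO. Wnt11 takes 8.37% of the ligand bar in wild-type and 19.0% in Ucp1-KO, Fzd4 57.1% and 48.6% of the Frizzled bar, and Sfrp4 5.72% and 17.0% of the antagonist bar.

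All 10 Frizzled receptor genes passed the minimum, with intervals above equal levels for 4 and below for 3. Over all genes 31.5% lay above and 30.5% below, so the shares were near those of any genes. The interval was wholly above equal levels for Fzd1, Fzd3, Fzd5 and Fzd7, wholly below for Fzd4, Fzd6 and Fzd10, and spanned equal levels for Fzd2, Fzd8 and Fzd9. With total counts Fzd3 was no longer above and Fzd2 came to lie below. Only Fzd10 was past 2-fold, and it passed the minimum through wild-type alone. The median log2 ratio was -0.050, or -0.35 with total counts, which is 0.043 below the median of all genes at that scaling. Summed Frizzled counts were 12413 and 10716, for a log2 ratio of 0.09 (interval 0.03 to 0.14), which became -0.22 (-0.27 to -0.17) with total counts.

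Fzd4, which also receives the vessel growth signal norrin, had 7520 wild-type counts and 5649 Ucp1-KO counts. The log2 ratio was -0.11 (-0.18 to -0.04), a small difference that counting error alone does not cover. The annotation places another listed gene, AI314278, over it on the same strand for 8780 bases, so its reads could have been shared. Fzd6 had 1843 and 1084 counts, for a log2 ratio of -0.47 (interval -0.62 to -0.31). Fzd7 had 1433 and 2115, for a log2 ratio of 0.86 (interval 0.72 to 1.00), and Fzd1 had 659 and 903, for a log2 ratio of 0.75 (interval 0.55 to 0.96). The order per exon length below Fzd4 was therefore Fzd6, Fzd7 and Fzd1 in wild-type (5.07, 4.61 and 2.97 CPM per kilobase) and Fzd7, Fzd1 and Fzd6 in Ucp1-KO (6.77, 4.04 and 2.97). Fzd5 had 186 and 295 counts, with a log2 ratio of 0.96 (0.58 to 1.36) just short of 2-fold. Fzd3 had 295 and 339, for a log2 ratio of 0.50 (interval 0.17 to 0.83). Fzd8 (314 and 250 counts), Fzd2 (77 and 43) and Fzd9 (44 and 34) did not differ beyond counting error, with intervals of -0.38 to 0.32, -1.37 to 0.26 and -1.08 to 0.91.

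Fzd10 and Fzd10os were lower together. Fzd10, on the plus strand of chromosome 5 from 128677908 to 128681157, had 42 wild-type counts (26.0 to 64.2) and 4 Ucp1-KO counts (0.484 to 14.4), for a log2 ratio of -2.96 (interval -6.23 to -1.06). Fzd10os, on the minus strand from 128656151 to 128679570, had 50 and 0 counts. Set against 6 counts it was 6.77-fold lower, and the upper end of its interval was a log2 ratio of -2.35. The gene bodies share 1663 bases on opposite strands. Without a known strand setting, reads of the shared stretch cannot be assigned, so the pair is not 2 separate measurements.

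The co-receptors for beta-catenin signalling were abundant, and those for the other routes were scarce. Lrp6 had 4985 wild-type counts and 4120 Ucp1-KO counts, for a log2 ratio of 0.02 (interval -0.06 to 0.11), but -0.28 with total counts. Lrp5 had 4620 and 2370 counts, for a log2 ratio of -0.66 (interval -0.77 to -0.56), or -0.97 with total counts. Lrp5 was thus 1.58-fold lower in Ucp1-KO after normalisation. In CPM per kilobase, which is scaled to library totals instead, Lrp5 was at 8.88 in wild-type and 4.53 in Ucp1-KO. On that scale it stood above Lrp6 (6.10) in wild-type and below it (5.02) in Ucp1-KO. Ror2, a receptor tyrosine kinase-like protein that binds WNT5A, had 63 counts (43.0 to 89.2) and 171 (137 to 211). The log2 ratio of 1.73 (1.14 to 2.38) was the highest of the receptors. Its interval was beyond 2-fold, but not with total counts (0.83 to 2.07). Ror1 had 43 and 51 counts, for a log2 ratio of 0.54 (interval -0.34 to 1.44).

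The median of the 4 co-receptors was 0.28 and turned to -0.023 with total counts, while their sum, led by Lrp5 and Lrp6, stood at -0.23 (-0.30 to -0.17) and, with total counts, at -0.54.

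The genes of secreted proteins that bind Wnts were lower in sum in Ucp1-KO. They had 902 wild-type and 474 Ucp1-KO counts, for a log2 ratio of -0.63 (interval -0.86 to -0.40). Of 6 genes 5 passed the minimum, 1 at least 2-fold higher, 2 at least 2-fold lower and 2 between, with a median of -0.39. Over all genes 7.42% were that much higher and 9.55% that much lower. Of the 2 lower genes, Frzb passed the minimum through wild-type alone and so had to differ. Sfrp1 had 479 counts (420 to 544) and 194 (157 to 237), for a log2 ratio of -1.003 (interval -1.36 to -0.66), at the edge of 2-fold. Sfrp2 had 217 and 134 counts, for a log2 ratio of -0.39 (interval -0.86 to 0.06). Sfrp1 was the highest antagonist per exon length in wild-type, at 1.87 against 1.78 for Sfrp2. In Ucp1-KO it was second, at 0.755 against 1.09.

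Frzb, also known as SFRP3, had the lowest ratio of any module gene with counts in both libraries. It had 99 wild-type counts (73.4 to 131) and 7 Ucp1-KO counts (1.69 to 19.0), for a log2 ratio of -3.44 (interval -5.62 to -1.99). The gene is on the minus strand of chromosome 2 from 80242313 to 80278304, and its promoter window was given with those of Axin2, Wnt11 and Rspo4. Sfrp4 went against the group, with 62 and 102 counts, for a log2 ratio of 1.01 (interval 0.35 to 1.71) that was 0.71 with total counts and then no longer 2-fold. Sfrp5, an antagonist described in adipocytes, had 45 and 31 counts, for a log2 ratio of -0.23 (interval -1.27 to 0.76). Wif1 had 0 and 6 counts, within the limit that a count of 0 allows.

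The Dickkopf genes were few in counts. Dkk3 had 141 wild-type counts and 147 Ucp1-KO counts, for a log2 ratio of 0.36 (interval -0.13 to 0.85). Dkk2 had 32 and 12 counts, a log2 ratio of -1.09 that was past 2-fold but not beyond counting error (-2.76 to 0.31). Dkk1, the classical blocker of LRP6, had 4 and 0 counts, and Dkk4 was listed at 0 in both.

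All 3 R-spondin genes with a ratio were at least 2-fold lower in Ucp1-KO, against 9.55% of all genes. Lgr4, their receptor gene, was higher. Rspo4, on the plus strand of chromosome 2 from 151684708 to 151716605, had 167 wild-type counts (133 to 207) and 18 Ucp1-KO counts (8.23 to 34.2), for a log2 ratio of -2.88 (interval -4.09 to -1.92). Rspo3, an R-spondin known from blood vessel formation, had 50 counts (32.4 to 73.8) and 16 (6.91 to 31.5), for a log2 ratio of -1.32 (interval -2.70 to -0.15). Rspo1 had 26 counts (13.8 to 44.5) and 4 (0.484 to 14.4), for a log2 ratio of -2.28 (interval -5.59 to -0.26). It passed the minimum through wild-type alone and so had to differ. Rspo3 shares 2648 bases with the listed gene Gm20276 on the same strand, so its count is uncertain. Rspo2 was listed at 0 in both. Lgr4 had 996 and 1156 counts, for a log2 ratio of 0.51 (interval 0.34 to 0.69), or 0.21 with total counts. The median of these 4 genes was -1.80, but their sum, most of which is Lgr4, gave 0.25 (0.08 to 0.41), or -0.061 (-0.23 to 0.10) with total counts. Per exon length, Lgr4 stood at 2.53 and 2.92, and Rspo4 at 1.25 in wild-type and 0.134 in Ucp1-KO.

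Every skeletal muscle marker and most markers of vessels and nerve had ratios below 0, whereas some macrophage and brown adipocyte markers were higher. The R-spondins with a ratio and the summed Wnt-binding antagonists were lower too. The 23 skeletal muscle markers had a median log2 ratio of -2.67 and ranged from -3.92 (Pvalb, 14889 and 796 counts) to -1.62. Of 12 endothelial markers 11 had a ratio below 0 (median -0.81, Emcn -1.39 and Vwf -1.05), with 0.289% and 0.146% of all counts. Of 11 pericyte and smooth muscle markers 9 did (median -0.70, Acta2 -1.02, Cnn1 1.85), and of 10 Schwann cell and nerve markers 8 (median -0.59). For these 10 nerve markers the interval lay below equal levels for 6 and spanned them for 4. Ncmap was at 1.27, with an interval (-0.009 to 2.73) that spanned equal levels. The 18 preadipocyte and fibroblast markers had a median of -0.11, none past 2-fold, with Dlk1 at -0.75 and Icam1 at 0.69. Of 10 brown adipocyte markers 4 were at least 2-fold higher, among them Elovl3 (2.52) and Dio2 (2.28). Adrb3 was the 1 that was lower (-1.08), and the median was 0.41. Over all genes 7.42% were at least 2-fold higher and 9.55% lower. Of 14 macrophage markers 4 were at least 2-fold higher, among them Itgam (2.04) and Trem2 (1.92), and 1 was lower, with a median of 0.19. Of 12 adipocyte markers 1 was at least 2-fold lower (Retn, -1.90) and none higher, with a median of 0.25. With total counts these 3 medians were 0.10, -0.12 and -0.056. None of these markers was at 0 in either library. The part of these cell types in the module's differences was not tested.

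Axin2, which encodes a scaffold of the complex that degrades beta-catenin and is itself switched on by the pathway, was lower in Ucp1-KO. It had 1300 wild-type counts (1202 to 1404) and 784 Ucp1-KO counts (708 to 866), for a log2 ratio of -0.43 (interval -0.61 to -0.25), or -0.74 with total counts. The Ucp1-KO level was 0.742 times the wild-type level. The gene lies on the plus strand of chromosome 11 from 108811169 to 108841609.

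Other genes known as Wnt targets did not share 1 direction with Axin2. Of 18 listed genes 13 passed the minimum, with a median log2 ratio of -0.044. At least 2-fold higher was 1, against 7.42% of all genes. At least 2-fold lower were 4, against 9.55% of all genes, and 8 were between. The lower ones were Tnfrsf19 (72 and 16 counts, -1.84, interval -3.19 to -0.74), Apcdd1, a membrane inhibitor of the pathway (188 and 50, -1.60, interval -2.31 to -0.96), Nkd2, which binds Dishevelled (106 and 37, -1.21, interval -2.07 to -0.43), and Ccnd1, the cyclin of the G1 phase (2062 and 764, -1.13, interval -1.31 to -0.96). Myc was the higher one, with 244 and 703 counts and a log2 ratio of 1.82 (1.53 to 2.14). Gas1, the most abundant of the list by mean normalised count, had 2405 and 1089 counts (-0.84, interval -0.99 to -0.70). Many of these genes also answer to other signals.

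Inside the cell the genes of the beta-catenin route differed by less than 2-fold. Of 26 such genes that passed the minimum, from Dishevelled to the TCF factors, none was past 2-fold, or 1 (lower) with total counts. Over all genes 7.42% were at least 2-fold higher and 9.55% lower. The median log2 ratio of the route was -0.019 (-0.33 with total counts). The interval lay above equal levels for 8 of the 26 and below for 7, where 31.5% and 30.5% of all genes did. Ctnnb1, which encodes beta-catenin, had 24099 and 16231 counts, for a log2 ratio of -0.27 (interval -0.31 to -0.23), and Tle5, a shortened member of the co-repressor family, had 8977 and 8352 (0.20, interval 0.13 to 0.26). Btrc, part of the ligase that marks beta-catenin for degradation, was the lowest at -0.86 (1031 and 460 counts). Lef1 had 9 and 4 counts, under the minimum. The 2 genes of Wnt secretion did not differ beyond counting error, Porcn with 233 and 228 counts (0.27, interval -0.12 to 0.65) and Wls with 1632 and 1243 (-0.09, interval -0.25 to 0.06).

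Of 13 other surface receptors and modulators, 2 were at least 2-fold lower, against 9.55% of all genes, and none higher. The median was -0.14. The 2 lower genes were Apcdd1 and Ptk7, a Wnt co-receptor of cell polarity, which had 138 and 43 counts (-1.37, interval -2.15 to -0.67). Tspan12, a partner of FZD4 in norrin signalling, had 12395 and 11538 counts, for a log2 ratio of 0.20 (interval 0.14 to 0.25). Lgr6, another R-spondin receptor, had 3056 and 4906 counts, for a log2 ratio of 0.98 (interval 0.89 to 1.08), just under 2-fold. Znrf3, the ligase that R-spondins restrain, had 444 and 644 (0.84, interval 0.58 to 1.09). Of 10 planar cell polarity genes none was past 2-fold, or 1 (lower) with total counts, 8 had a ratio below 0 and the median was -0.34. The 2 most abundant of these by mean normalised count were Scrib (2311 and 1810 counts, -0.05, interval -0.18 to 0.07) and Prickle1 (2339 and 1230, -0.63, interval -0.77 to -0.49).

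**Figure D4:**
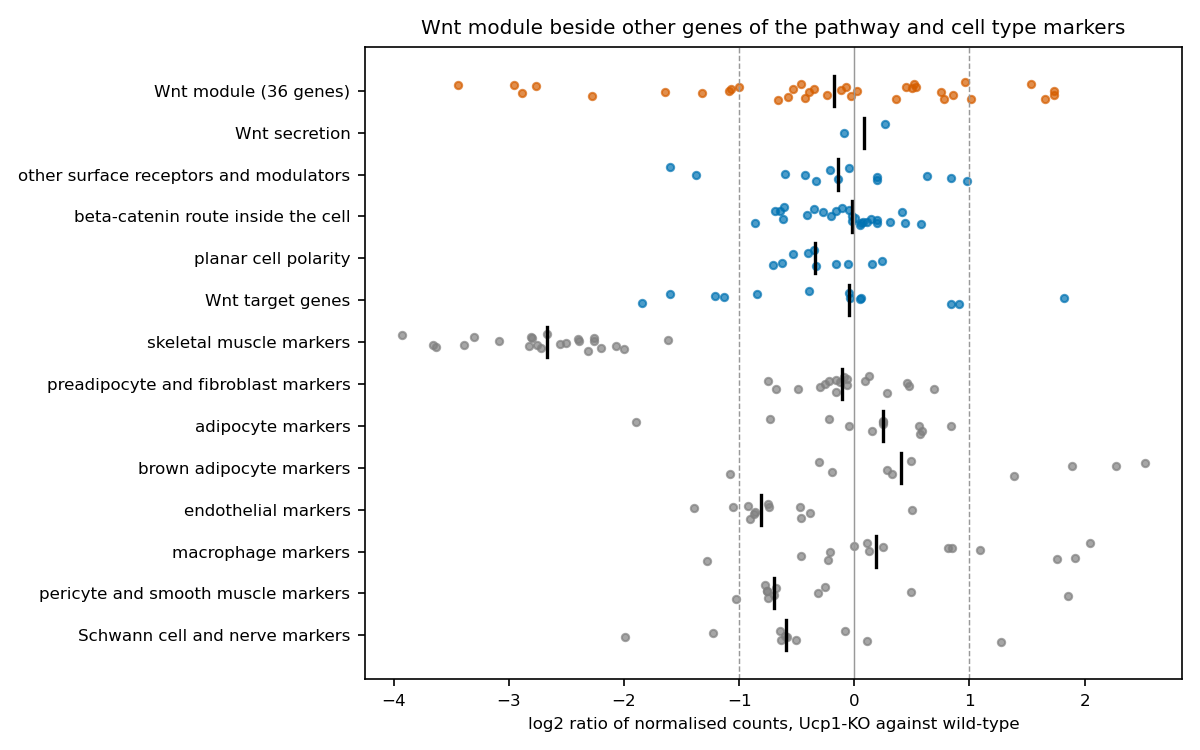
Log2 ratio of normalised counts, Ucp1-KO against wild-type, for each gene of the Wnt module (orange), of other lists of the pathway (blue) and of cell type markers (grey), with a black bar at the median of each list. With Wnt6 and Fzd10os placed at their bounds, the 36 module genes spread from -3.44 to 1.73, the 26 genes of the beta-catenin route from -0.86 to 0.58, and all 23 muscle markers lie left of -1.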

How the data were processed

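The authors deposited raw gene counts, which they made with featureCounts from strand-specific poly-A libraries of pooled tissue. The submitters' processing notes name Trim Galore, HISAT2 and the build mm39 (GRCm39), without versions. Annotation release and the settings for strand and multiply matching reads are not given in the sources used here, so counts of overlapping genes are uncertain.

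For scaling, the size factors of DESeq2 1.42.0 (R 4.3.3; medians of ratios) were used, 1.11 for wild-type and 0.901 for Ucp1-KO. Total counts were 52950913 and 53216727. A log2 ratio compares Ucp1-KO with wild-type after 0.5 was added to each normalised count. Of genes with 1 to 10 counts, 70.7% and 73.4% had an even count, as when both mates are counted. Of genes with 100 to 1000 counts, 49.9% and 50.2% did, without such an excess. For all genes alike, exact Poisson and conditional binomial (Clopper-Pearson) 95% intervals were computed on counts divided by 2 (scipy 1.17.1). They cover counting error only. For a gene at 0, a bound was set against 6 counts in that library, without the counting error of the other library. Positions and merged exon lengths came from GENCODE mouse release 39, which matched all 50 genes by symbol. Alternatives were TMM factors (edgeR 4.0.16), total counts with and without mitochondrial genes, other filters, pseudocounts and size rules. Scripts were tested on simulated data. Values are given for every module gene that averaged 10 normalised counts or more, for genes of the pathway lists past 2-fold or among the 2 most abundant, and for the 2 genes of a marker list furthest from 0, 1 of which is not reported here. Ctnnb1, Tle5, Porcn and Wls are such genes. Btrc, Lgr6, Znrf3, Lef1, Adrb3 and the genes under the minimum were named after their values were seen. The module and the lists were chosen with earlier results of these data known.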

Additional observations from a re-analysis of the deposited data

How the results depend on the processing

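No paired analysis was possible because there was only 1 library of each genotype, which also meant that none could be left out. The counts of module genes past 2-fold depended on the treatment of low counts. With a minimum mean of 50, 3 were higher and 3 lower, by construction of the stricter filter. A log2 ratio of at least 1.5 left 4 higher and 6 lower, and an interval wholly beyond 2-fold left 2 higher and 5 lower. Those 2 were Wnt11 and Ror2, and with total counts neither interval was wholly beyond 2-fold. With TMM factors that of Wnt11 was not. Counting each interval that excludes equal levels gave 12 higher and 13 lower. A pseudocount of 5 took Dkk2 (-0.89), Sfrp1 (-0.99) and Sfrp4 (0.96) under 2-fold. The median over the module, for which no error can be given, went from -0.17 to -0.48 with total counts and changed sign to 0.025 with a minimum mean of 50. With the other alternatives run it lay between -0.23 and -0.16. Of 38 genes with a ratio, all were within their counting interval with TMM factors, with total counts without mitochondrial genes and with a pseudocount of 5, and 29 were with total counts. The other 9 moved, where the median of all genes went to -0.31: Fzd1 (0.45), Fzd4 (-0.42), Fzd6 (-0.77), Fzd7 (0.55), Lgr4 (0.21), Wnt5a (0.15), Lrp5 (-0.97), Lrp6 (-0.28) and Axin2 (-0.74). Chosen after seeing the data, the same scalings were applied to the intervals and summed counts. With total counts 8 of 36 intervals changed side, and with the other scalings 0 did. Intervals on counts as deposited, in place of read pairs, put 5 more genes beyond counting error (Dkk2, Dkk3, Wnt2, Wnt7b and Sfrp2). Depth limits the ligands, R-spondins and Dickkopf genes, most of which had under 100 counts.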
